A study of Mus musculus with 6 samples.

Results

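TAF4A CUT&RUN peaks were called at 2 places of the mouse linc-MD1 locus in proliferating muscle stem cells (MuSCs). They lay over the start of the gene and about 2 kb upstream of it. linc-MD1 is the long noncoding RNA of the gene Gm28653 (ENSMUSG00000099906, RefSeq symbol Lincmd1), which the deposited table lists as a lincRNA without a symbol. The peaks were selected on their listed gene ID and on position, as all peaks listed for ENSMUSG00000099906 or lying on chromosome 1 in a window that reaches from within Pkhd1 to beyond Il17a. Both criteria found the same 2 of 1131 peaks. The table holds only intervals that reads of these libraries turned into peaks, so that the presence of the peaks and their counts are part of how they were chosen and are given as a description.

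The counts come from 3 CUT&RUN libraries made with a TAF4A antibody (Santa Cruz Sc-136093) from MuSCs of wild type C57BL/6 mice, with the cell state labelled activated/proliferating. In CUT&RUN, an antibody directs micrococcal nuclease to the DNA next to its target, and the released fragments are sequenced. Each has a partner library made with mouse IgG, which controls for cutting that no antibody directs. As the IgG counts were not analysed here, no enrichment over background is given. The cells had been sorted from limb and trunk muscle and grown in culture, so that satellite cells at rest in the tissue were not assayed, and a DNA-binding assay offers no marker transcripts to check the cell type against. The methods call the replicates biological, but the labels do not tie a library to an animal or a culture.

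TAF4A is a subunit of TFIID, the general transcription factor that recognises core promoters and helps to place RNA polymerase II. The study's authors assume, however, that their CUT&RUN mainly found TAF4A that was not part of TFIID. linc-MD1 is a muscle-specific RNA that accumulates when myoblasts differentiate. It is known as a sponge that takes up microRNAs and thereby releases Maml1, a coactivator of transcription, and Mef2c, a muscle transcription factor, from repression. Its locus also carries Mir206 and Mir133b, which encode muscle-enriched microRNAs. Both are induced by the MyoD family, whose members bind E-boxes (CANNTG, often CAGCTG).

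The gene lies on the plus strand of chromosome 1 at 20669882 to 20684298 (GRCm38, GENCODE M21). The longer of its 2 transcripts runs from 20669882 to 20682958 and has 3 exons, of 120, 155 and 246 bases. The shorter one is a single exon from 20679023 to 20684298. The Mir206 hairpin, at 20679010 to 20679082, overlaps the start of the shorter transcript and lies in the last intron of the longer one. The Mir133b hairpin, at 20682769 to 20682887, lies within the last exon of the longer transcript. The 3′ arms of both hairpins give the microRNAs known from muscle. They are printed here from RefSeq (GRCm38.p6) because both hairpins lie within the gene. Capitals mark the seed, bases 2 to 8.
mmu-miR-206-3p: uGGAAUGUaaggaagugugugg
mmu-miR-133b-3p: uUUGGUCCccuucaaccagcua

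The first peak, called the promoter peak here, spanned 332 bases at 20669736 to 20670067. Counted from the gene start as base 1, with no base 0, it reached from base -146 to base 186. It comprised 146 bases upstream of the start, the whole first exon of 120 bases and the first 66 bases of the first intron. Its centre was 19 bases from the start according to the deposited distance. The other one, called the upstream peak, spanned 352 bases at 20667600 to 20667951, which is from base -2282 to base -1931. It overlapped no annotated gene, and its centre was 2107 bases from the start. A gap of 1784 bases without a peak separated the 2 peaks, and their centres were 2126 bases apart.

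**Figure D1:**
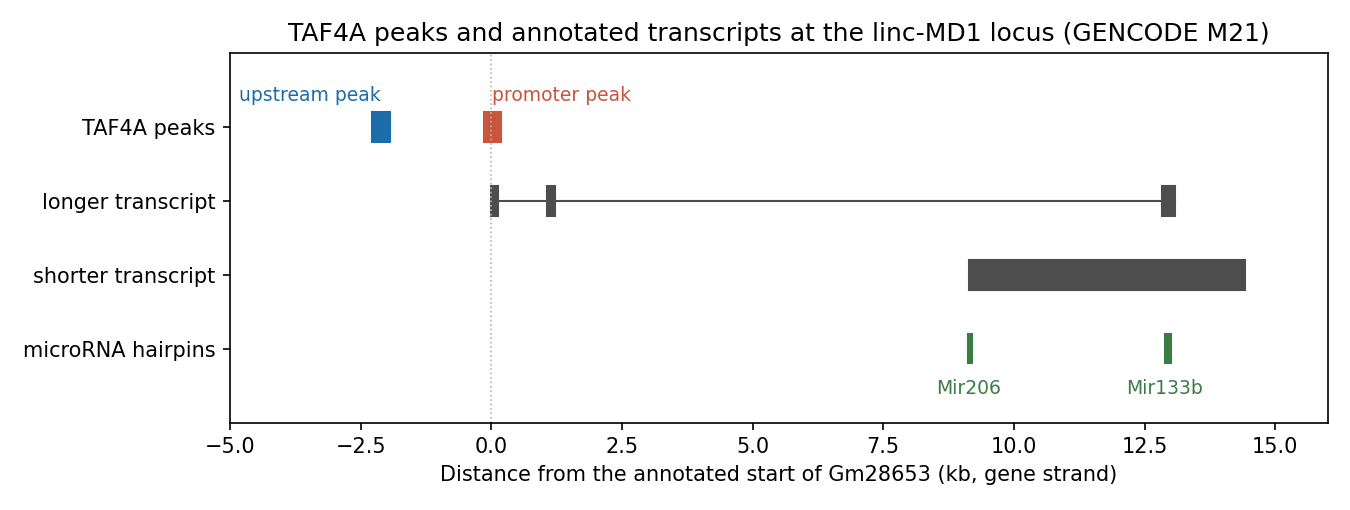
Map of the locus, drawn to scale along the gene strand, with the distance from the annotated gene start in kb on the horizontal axis. Coloured boxes are the 2 TAF4A peaks, dark boxes are exons joined by introns, and green boxes are the microRNA hairpins. The promoter peak lies over the 5′ end of the longer transcript, and the upstream peak lies before that transcript. The start of the shorter transcript is 9122 bases from the centre of the promoter peak.

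No peak was present at either microRNA hairpin or at the start of the shorter transcript. The centre of the promoter peak was 9109 bases upstream of the Mir206 hairpin and 12868 bases upstream of the Mir133b hairpin. Apart from these, the window holds the start of Pkhd1, a gene for a protein of primary cilia, and Il17a, a cytokine gene of T cells, so that 5 genes are annotated in it. Pkhd1 starts 49536 bases before the upstream peak, Il17a starts 60838 bases after the promoter peak, and no peak was found at either. The nearest peaks on the chromosome were far beyond the limits of the window. On one side this was a peak listed for Eloc, an elongin subunit, 4010649 bases from the upstream peak, with 20, 14 and 24 counts in replicates 1, 2 and 3. On the other side it was a peak listed for the phosphatase gene Ptp4a1, 10279917 bases from the promoter peak, with 10, 4 and 17 counts. Over all peaks the median distance to the nearest peak not listed for the same gene was 150354 bases, and 71 of 1131 peaks were more isolated than the upstream peak.

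The sequences of both peaks are shown next, since the results on base composition and motifs refer to them. They are read on the plus strand of GRCm38, which is the strand of the gene. Because the peaks exceed 300 bases, the central 300 bases of the upstream peak (chr1:20667626-20667925) and the first 300 bases of the promoter peak (chr1:20669736-20670035) are given. Capitals mark E-boxes (CANNTG), a MEF2 element that contains the TATA letters TATAAA, and the TATA-like letters TATTTAAA. Base 147 of the promoter sequence is the annotated gene start.
linc-MD1 upstream peak: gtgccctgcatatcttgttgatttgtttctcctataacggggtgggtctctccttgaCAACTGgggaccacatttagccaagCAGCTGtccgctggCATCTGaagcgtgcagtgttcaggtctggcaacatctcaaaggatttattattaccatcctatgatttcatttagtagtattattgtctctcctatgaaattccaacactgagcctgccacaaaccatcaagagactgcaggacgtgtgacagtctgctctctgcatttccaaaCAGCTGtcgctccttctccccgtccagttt
linc-MD1 promoter peak: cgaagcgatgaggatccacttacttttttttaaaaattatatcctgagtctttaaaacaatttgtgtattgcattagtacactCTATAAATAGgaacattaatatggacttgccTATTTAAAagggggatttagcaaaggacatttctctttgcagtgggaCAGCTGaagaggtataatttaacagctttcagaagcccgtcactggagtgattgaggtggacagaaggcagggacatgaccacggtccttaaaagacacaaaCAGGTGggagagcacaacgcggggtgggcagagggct

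The promoter peak was rich in A and T. Its GC content was 43.1%, against a median of 60.8% for the 928 peaks at promoters, that is, peaks centred within 1000 bases of an annotated transcript start. Of these, 23 had a lower GC content. The upstream peak had 48.0% GC, against a median of 53.9% for the 203 peaks away from promoters, of which 44 were lower. Each peak contained 6 CpG dinucleotides, whereas peaks of similar width (within 20%) had a median of 21.5 CpGs for the upstream and 21 for the promoter peak. The ratio of observed to expected CpGs was 0.304 in the upstream and 0.414 in the promoter peak, against a median of 0.697 over all peaks. Bases marked as repeats in the reference made up 5.97% of the upstream and 15.4% of the promoter peak.

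**Figure D2:**
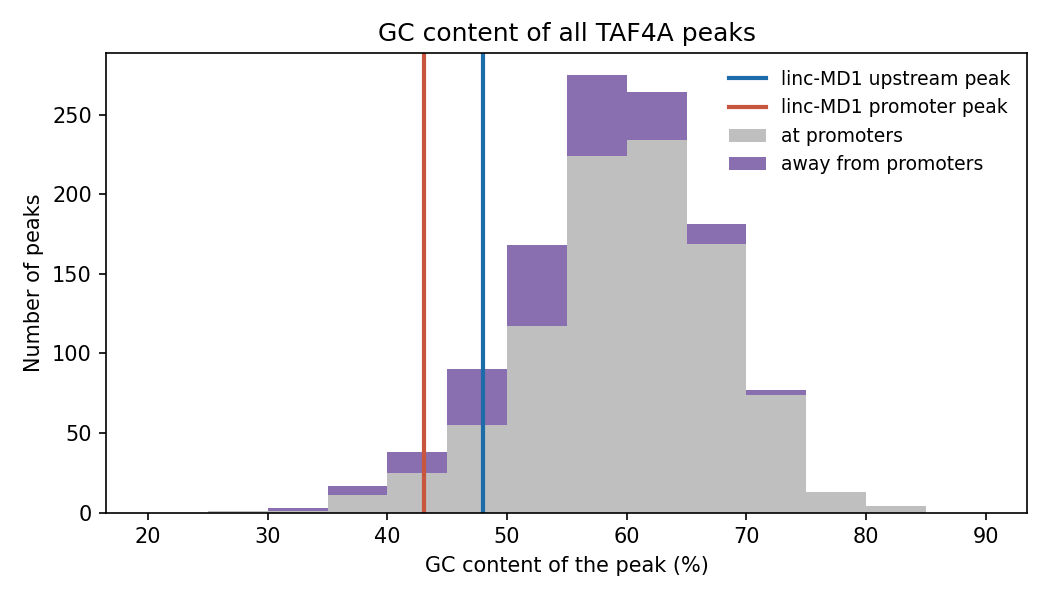
Histogram of GC content in percent (horizontal axis) over all 1131 TAF4A peaks, with the number of peaks on the vertical axis, stacked by position at or away from promoters. Coloured lines mark the linc-MD1 upstream peak at 48.0% and the promoter peak at 43.1%, both in the lower tail of the distribution.

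Motifs of the factors the study examined, NF-Y and SP1, were searched on both strands. Neither linc-MD1 peak contained the NF-Y motif CCAATCA, its shorter form CCAAT or the SP1 motif GGGCGGG. Among peaks of similar width to the promoter peak, 28.6% contained CCAATCA, 64.6% CCAAT and 56.5% GGGCGGG. Over all peaks these shares were 17.5%, 45.2% and 35.9%. In total, 417 peaks (36.9%) contained neither CCAAT nor GGGCGGG, and 272 of them were at promoters. In RefSeq promoters, windows of 300 bases around the start of 27025 genes, CCAATCA was found in 8.20%, CCAAT in 37.9% and GGGCGGG in 25.8%. A missing match says only that these letters were not in the windows. By other measures, the study reported larger shares of TAF4A peaks with NF-YA CUT&RUN peaks or SP1 motifs. Whether the linc-MD1 peaks overlap NF-YA peaks was not examined here.

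E-boxes were present in both peaks. The upstream peak had 4 matches to CANNTG, 2 of which read CAGCTG, at bases -2174 to -2169 and -1986 to -1981 from the gene start. The others read CAACTG (-2199 to -2194) and CATCTG (-2160 to -2155). Thus 3 of the 4 E-boxes lay close together. Of the 134 peaks of similar width, 7 (5.22%) had at least 4 E-boxes and 4 (2.99%) had at least 2 CAGCTG, and the median was 1 E-box. The promoter peak had 2 E-boxes, both downstream of the start, with CAGCTG at bases 16 to 21 in the first exon and CAGGTG at bases 118 to 123 across the end of that exon. Of the 161 peaks of similar width to the promoter peak, 46 (28.6%) had at least as many E-boxes and 33 (20.5%) had a CAGCTG. At least 1 CANNTG was found in 64.9% of the peaks similar in width to the upstream and 60.3% of those similar to the promoter peak, and in 72.2% of RefSeq promoters. CAGCTG was found in 24.6%, 20.5% and 16.1% of these. Over all peaks, most of which are narrower, the shares were 44.4% and 12.9%.

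Upstream of the start, the promoter peak carried a MEF2 element, the site of the MEF2 family of muscle transcription factors, at bases -63 to -54. It reads CTATAAATAG, and the letters TATAAA at bases -62 to -57 lie inside it, so that the matches are not independent. A MEF2 element was found in 9 of the 161 peaks of similar width (5.59%), in 2.03% of all peaks and in 3.26% of RefSeq promoters. The letters TATAAA were found in 26.1%, 10.8% and 14.2% of these. In total, 10 peaks held both a MEF2 element and TATAAA, the linc-MD1 promoter peak among them. The letters TATTTAAA, looked for only after the sequence had been read, stood at bases -32 to -25, and occurred in 4 of the 161 peaks of similar width (2.48%), 1.24% of all peaks and 1.86% of RefSeq promoters. The TATA box of a core promoter usually lies about this far from the start. The upstream peak had no MEF2 element and no TATAAA. Neither peak had a CArG box, the site of the serum response factor, which occurred in 1.59% of all peaks.

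Reads were counted over both peaks in all 3 TAF4A libraries. Since the peaks were unified over the libraries, these counts do not tell in which library each was called. The upstream peak had 49 counts in TAF4A replicate 1 (exact 95% Poisson interval 36.3 to 64.8), 37 in replicate 2 (26.1 to 51.0) and 39 in replicate 3 (27.7 to 53.3). After TMM scaling of the libraries the normalised counts were 37.2, 51.1 and 40.8, with a mean of 43.0 ± 7.25 (SD, n = 3). Replicate 2 was the highest at this peak once scaled, and replicate 1, the library with the most counts over all peaks, the lowest. The promoter peak had 65 counts in replicate 1 (50.2 to 82.9), 27 in replicate 2 (17.8 to 39.3) and 26 in replicate 3 (17.0 to 38.1). Its normalised counts were 49.3, 37.3 and 27.2, with a mean of 37.9 ± 11.1 (SD, n = 3). Here replicate 1 was the highest and replicate 3 the lowest. All intervals cover counting error only, and they and the chi-square test take the deposited whole numbers as raw reads.

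The 3 libraries held 47723, 24826 and 32128 counts over all peaks, with medians of 26, 15 and 19 counts per peak. Of these totals, the linc-MD1 locus took 0.239%, 0.258% and 0.202% in replicates 1, 2 and 3. These totals are counts over peaks and not sequencing depths. A chi-square test, with p-values adjusted by Benjamini-Hochberg over all 1131 peaks, compared the 3 counts of a peak with the TMM-scaled totals. The test asked whether the counts differed beyond the Poisson error. It was passed by 0 of the 2 linc-MD1 peaks, with an adjusted p of 0.505 for the upstream and 0.112 for the promoter peak, against 17.9% of all peaks. At an unadjusted p under 0.05, the chi-square test picked out 1 of the 2, the promoter peak (p = 0.0303), against 32.5% of all peaks. Among peaks of similar width, 39.6% (upstream) and 35.4% (promoter) passed the adjusted test. The missing calls do not show that the libraries were alike at the locus.

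The order of the 2 peaks was not the same in all libraries. The promoter peak contributed 57.02% of the locus counts in replicate 1 (exact 95% binomial interval 47.4 to 66.3), 42.2% in replicate 2 (29.9 to 55.2) and 40.0% in replicate 3 (28.0 to 52.9). Hence the promoter peak was the higher one in replicate 1 and the upstream peak was higher in replicates 2 and 3, and all 3 intervals include equal shares. The mean difference of promoter minus upstream peak was -5.09 ± 14.9 normalised counts (SD, n = 3), which is smaller than its spread between libraries. The sum of both peaks gave 86.4, 88.4 and 67.9 normalised counts in replicates 1, 2 and 3 (80.9 ± 11.3, SD, n = 3). Of the 77 genes with exactly 2 listed peaks, 53 had the same peak on top in all 3 libraries and 24, linc-MD1 among them, did not.

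**Figure D3:**
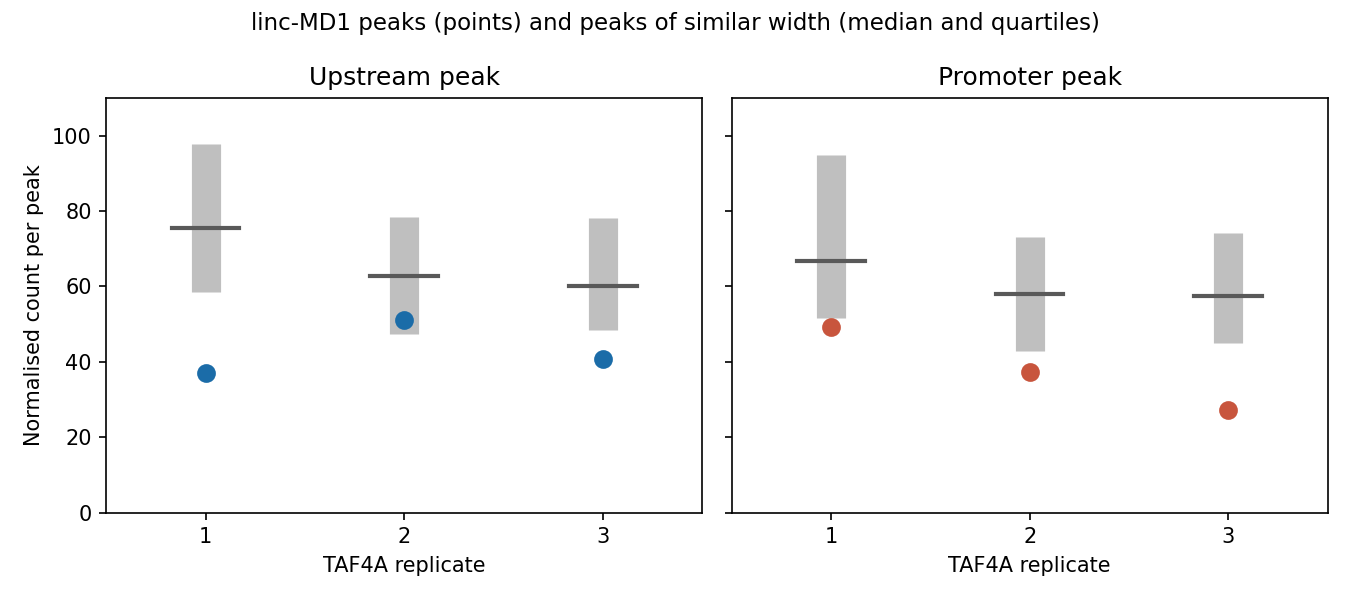
Normalised count per peak (vertical axis) in TAF4A replicates 1, 2 and 3 (horizontal axis) for the linc-MD1 upstream peak (left) and promoter peak (right). Points are the linc-MD1 peaks, dark lines the median and grey bars the quartiles of peaks within 20% of the same width. Every point lies below the median of its library, and 1 of the 6, the upstream peak in replicate 2, lies within the quartiles.

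For their width, the linc-MD1 peaks had few counts. Wide peaks collect more reads, so each peak was set beside the peaks within 20% of its width. The upstream peak had percentiles of 7.46, 29.9 and 16.04 among 134 such peaks in replicates 1, 2 and 3, on average 17.8 ± 11.3 (SD, n = 3). The promoter peak had percentiles of 19.6, 14.3 and 3.73 among 161 such peaks, a mean of 12.5 ± 8.06 (SD, n = 3). These are means over libraries. Without replicate 2 the mean percentile of the upstream peak was 11.8, and beside the peaks within 10% of its width that of the promoter peak was 8.03. By its mean normalised count over the 3 libraries, the upstream peak had a percentile of 9.7 and the promoter peak of 8.7 in the same classes. Of the peaks within 20% of the width, 96 of 134 (upstream) and 109 of 161 (promoter) were narrower than the linc-MD1 peak. Against the median of these peaks, the log2 difference in normalised count (pseudocount of 1) was -0.61 ± 0.36 for the upstream and -0.70 ± 0.32 for the promoter peak (SD, n = 3). The direction was the same in 3 of 3 libraries for both peaks, and both differences were larger than their spread. With peaks within 50% of the width, of which 429 of 485 and 451 of 529 were narrower, the log2 difference was 0.087 for the upstream and -0.036 for the promoter peak. Only 14 of the 134 and 12 of the 161 peaks of similar width lay away from promoters. Beside those, the log2 difference was -0.33 for the upstream and -0.32 for the promoter peak.

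**Figure D4:**
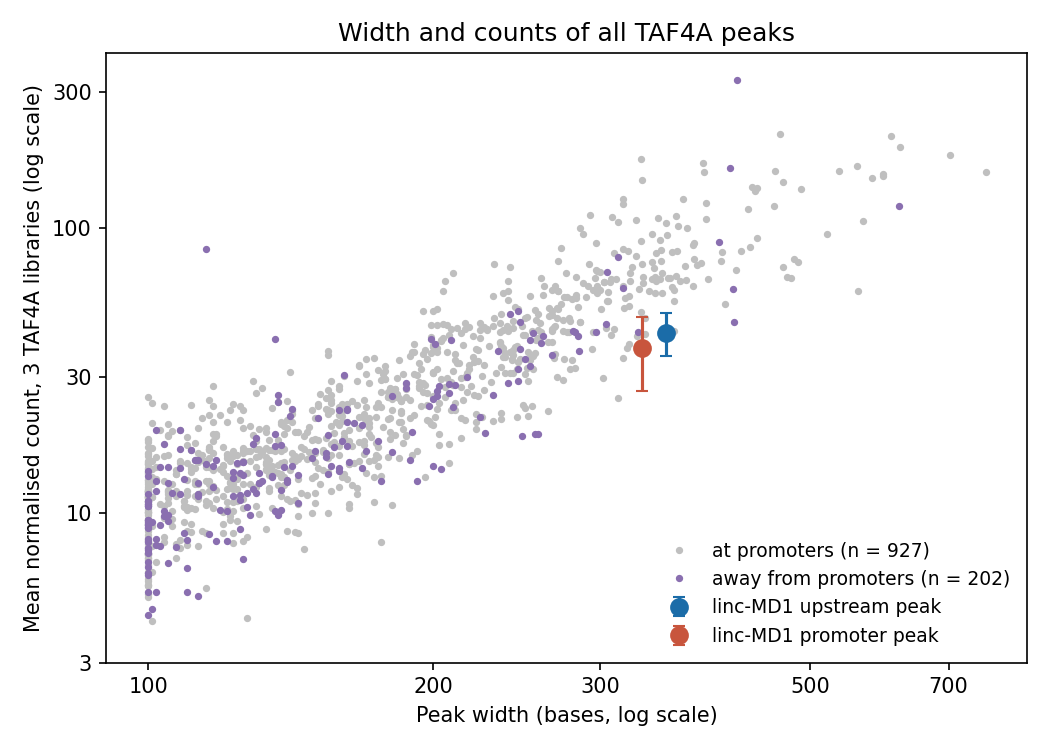
Mean normalised count over the 3 TAF4A libraries (vertical axis, log scale) against peak width in bases (horizontal axis, log scale) for all 1131 peaks. Grey points are peaks at promoters, purple points peaks away from them, and large points with bars the linc-MD1 peaks with the mean and SD of 3 libraries. At 332 and 352 bases the linc-MD1 peaks, with means of 37.9 and 43.0, lie in the lower part of the cloud for their width.

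Both peaks were nevertheless above most peaks in total count, and they were wider than most. The median peak had a width of 161 bases and a mean normalised count of 20.2. In width, 67 peaks exceeded the upstream and 89 the promoter peak. In mean normalised count the upstream peak ranked 238th and the promoter peak 280th of 1131. Per 100 bases, the means were 12.2 ± 2.06 and 11.4 ± 3.33 normalised counts (SD, n = 3), and these means had percentiles of 43.99 and 37.0 among all peaks. Among the 203 peaks away from promoters, with a median width of 136 bases and a median of 14.6 normalised counts, the upstream peak ranked 7th in width and 19th in mean normalised count. Of the 55 peaks that were centred more than 1000 bases upstream of their listed gene and away from promoters, the upstream peak ranked 9th in count and 4th in width.

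The peaks most similar to each of them in counts per base over the 3 libraries, among peaks within 20% of the width, were looked up as well. For the upstream peak the closest one belonged to another lincRNA, ENSMUSG00000106426 on chromosome 3, with 39, 32 and 36 counts in replicates 1, 2 and 3. It was also away from promoters, and its distance over the 3 log2 values was 0.217. The next 4 were at promoters, with 2 peaks listed for Tlcd2 and 1 each for Mpc2, a carrier of pyruvate into mitochondria, and Zc3h6. For the promoter peak they were Mplkip, at a distance of 0.373, Mknk2, a kinase that acts on a translation initiation factor, with 67, 30 and 34 counts, a peak without a listed gene, a histone gene listed as H4c1, and Morf4l2.

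Among the peaks listed for lincRNA genes, those of linc-MD1 were on the higher side. A lincRNA was listed for 28 peaks of 22 genes, and 4 of these genes had more than 1 peak. Their median was 15.2 normalised counts, with a range from 6.51 to 65.3, and their median width was 143 bases. The upstream peak of linc-MD1 ranked 5th and its promoter peak 7th of the 28 in mean normalised count, and they ranked 2nd and 3rd in width. The highest of the 28 was the peak over the start of Malat1 (ENSMUSG00000092341), an abundant nuclear RNA, with 88, 52 and 55 counts and 65.3 ± 7.28 normalised counts on average (SD, n = 3). Malat1 had 4 listed peaks. In each library its promoter peak exceeded both linc-MD1 peaks. Among the 77 genes with 2 listed peaks, the linc-MD1 peaks ranked 22nd when summed, and the lower of its peaks ranked 6th among the lower peaks.

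Genes that act with linc-MD1 or that regulate muscle were then looked up. Of the known targets and partners of linc-MD1, which are Maml1, Mef2c and the RNA-binding protein gene Elavl1, 0 of 3 had a listed peak. This is no result about these genes, since 3.80% of all protein-coding genes had one. The peak nearest to the start of Maml1 was 85330 bases away. Of 12 muscle microRNA genes, Mir206 and Mir133b included, 0 had a listed peak or a peak centred within 1000 bases of the hairpin's start. Over all annotated microRNA genes the shares were low as well, at 0.227% and 1.5%. The Mir1a-1 and Mir133a-2 genes of chromosome 2, relatives of Mir206 and Mir133b, had their nearest peak at 131769 and 141100 bases. A microRNA hairpin is not the start of its primary transcript, so these distances do not describe their promoters. Of 17 muscle regulators, 4 had a listed peak, and these were Myod1 and the genes of its inhibitors Id1, Id2 and Id3, beside the 3.80% of all protein-coding genes. The other regulators, such as Pax7, Myf5, Myog and Mef2a, had none, and the nearest peak to the start of Pax7 was 1440971.5 bases away.

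Myod1, the regulator that marks activated MuSCs, offers a comparison at a similar width. Its peak on chromosome 7, at 46376281 to 46376620, spanned 340 bases over the gene start. Its 71, 62 and 57 counts in the 3 libraries exceeded those of either linc-MD1 peak every time. The mean normalised count was 66.3 ± 17.0 (SD, n = 3). The Id genes were higher still. The peak nearest to the start of Id1 had 138.3 ± 20.6, that of Id2 126.1 ± 22.2 and that of Id3 157.6 ± 27.2 normalised counts (SD, n = 3), over 439, 367 and 766 bases. Of 8 other noncoding RNA genes studied in muscle, Malat1 and Dnm3os had a listed peak. Neat1 and Mir22hg had peaks within 1000 bases of their start that are listed for other genes. In the annotation, 1 of the 8 is protein-coding. Over all annotated long noncoding RNA genes, 0.374% had a listed peak and 1.41% a peak within 1000 bases. Dnm3os, the host of another microRNA cluster, had 24, 8 and 24 counts at its start (18.1 ± 7.01 normalised counts, SD, n = 3), fewer than either linc-MD1 peak in every library. H19, an imprinted noncoding RNA of embryonic and regenerating muscle, had no peak within 27049 bases.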

How the data were processed

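CUT&RUN of TAF4A and IgG was performed in cultured wild type MuSCs. Per the submitters' processing notes, reads were trimmed with Trimmomatic 0.39, aligned to mm10 with STAR 2.7.9a and deduplicated with Picard 2.21.7 (the study's supplement names another Picard version). Spliced, multi-mapping, ribosomal and mitochondrial reads were removed. The authors called peaks with MACS for each TAF4A library against IgG, unified them over the libraries and deposited whole-number read counts per unified peak from featureCounts. The study's methods describe a later normalisation of the raw count matrix with DESeq2. The deposited values were taken here as raw counts, because they are whole numbers and their library totals differ. The deposited distances run from the peak centre to the listed gene's start.

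Groups and replicate numbers came from the titles. Deposited starts were read as counted from 0, because the narrowest peak then spans 100 bases, and are given from 1. The gene models of GENCODE M21 and the RefSeq sequences are on GRCm38, the build that mm10 names. Counts were scaled with TMM (edgeR 4.0.16, R 4.3.3) to the mean scaled library size, with ratios of 1.32, 0.724 and 0.957. Python 3.11.15, numpy 2.4.6, pandas 2.3.3, scipy 1.17.1 and matplotlib 3.10.9 served for the rest. A chi-square test per peak, with an adjusted p under 0.05 as threshold, was tested on simulated data before use. A percentile counts peers below the value with ties shared equally. Motifs were searched on both strands, and the MEF2 element and CArG box allow A or T in their centres. DESeq2 1.42.0 gave an alternative scaling. The peaks, the gene lists and the rules for naming genes (all peaks of the locus, the genes of the window and its nearest peaks, and the 5 peaks most alike) were chosen with earlier results of these data known. No column was left without a sample.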

Additional observations from a re-analysis of the deposited data

How the results depend on the processing

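No paired analysis was possible because every count column used here belongs to a TAF4A library, which leaves no column to pair with. A fit of TAF4A against IgG with a replicate block was not run. The lower counts of the linc-MD1 peaks beside peaks of similar width were seen in 19 of 20 alternatives for the log2 difference, and in 16 of the 20 the difference was larger than its SD over the libraries. With peaks within 50% of the width it became 0.087 for the upstream and -0.036 for the promoter peak, and the mean percentiles became 55.0 and 46.6. Peaks narrower than the linc-MD1 peak made up 429 of 485 and 451 of 529 in that class, against 96 of 134 and 109 of 161 within 20%. Beside peaks away from promoters the log2 difference of the promoter peak became -0.32, and the mean percentiles became 33.3 (upstream) and 20.8 (promoter). As counts per base over all peaks, the log2 differences became -0.14 and -0.26 and the percentiles, as means over libraries, 42.7 and 38.3. Of these, the values within 50% (SD 0.227 and 0.427) and per base (SD 0.23 and 0.454) were smaller than their SD. For each of these changes the cause was not tested. Without 1 replicate each, the log2 difference ranged from -0.78 to -0.42 (upstream) and from -0.84 to -0.53 (promoter).

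The mean percentiles ranged from 11.8 to 23.0 (upstream) and from 9.01 to 16.9 (promoter) without 1 replicate each. For the promoter peak they were 8.03 within 10% of the width and 8.0 among the 100 peaks nearest in width. The chi-square test passed 203 of all peaks, 110 at an adjusted p under 0.01, and between 31 (without replicate 1) and 183 (without replicate 2) when 1 library was left out, with 86 without replicate 3. Neither linc-MD1 peak passed under any of these settings, with adjusted p-values from 0.357 to 0.799 for the upstream and from 0.0542 to 0.612 for the promoter peak in the chi-square test. The mean normalised counts changed by less than their SD under the other scalings. Widening each peak by 100 bases on both sides raised the motif matches from 6 to 7 (upstream) and from 5 to 6 (promoter), in both cases by 1 E-box. These totals count overlapping matches separately, so that a CAGCTG counts also as a CANNTG, and the TATAAA inside the MEF2 element counts as well. With 26 to 65 counts per library, differences between the libraries or between the peaks of less than their counting intervals could not be resolved.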
